A study of Homo sapiens with 6 samples.

Results

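Cells repair damaged DNA by several routes, each with its own set of proteins. In the FPKM table of SW480 cells grown on soft or stiff hydrogel, the DNA damage repair genes were taken as every row whose symbol begins with FANC, BRCA, XRCC, ERCC, MLH, PARP, RECQ, SLX or SLF, or with RAD or MSH and a digit, or is ATM, ATR, BLM, EXO1 or UVRAG. This gave 55 genes of the 8529 in the table. SW480 cells derive from a human colon adenocarcinoma, carry the label wild type, and were kept in L-15 medium without added CO2. The cells were grown for 72 h on plates coated with hydrogel of 2 kPa (soft) or 25 kPa (stiff), with 3 libraries at each stiffness and no further treatment. The labels do not say whether the 3 wells came from separate cultures, so a p-value here measures the spread between these libraries only. The study asked how the stiffness of the matrix bears on gene expression in colorectal cancer cells, and the comparison below is 25 kPa against 2 kPa.

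By way of background, homologous recombination copies an intact sister strand to mend a double-strand break and is used in S and G2 phase, when a sister is present. The BRCA proteins prepare resected DNA for strand exchange, cofactors such as XRCC2 and XRCC3 assist it, and the BLM helicase takes the joined strands apart. Non-homologous end joining ligates broken ends directly from the Ku heterodimer onwards, at any stage of the cycle. The Fanconi anaemia proteins unhook crosslinks, nucleotide excision repair removes bulky adducts, base excision repair and the poly(ADP-ribose) polymerases PARP1 and PARP2 deal with damaged bases and single-strand breaks, and mismatch repair corrects copying errors. Many recombination genes are known to be transcribed with the cell cycle.

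The values are FPKM, fragments scaled to the length of the transcript and the size of the library, so that levels are scaled for length. Orders of abundance and ratios between genes below are those of the listed values. The summed FPKM ran from 201030 to 263028 over the 6 libraries and the median gene from 2.23 to 2.83. The paper gives an average amount of data per specimen but no number of reads per library, so no counting error is given. Libraries correlated at a Pearson r of 0.971 to 0.988 across genes, which are not independent replicates. Of 12 colorectal epithelium markers 8 were in the table, with KRT18 at 2611 to 3358 FPKM, while KRT20, CDX1 and CDX2 averaged under 1 FPKM. Of 6 endothelium markers 0 were in the table, the 4 fibroblast markers in it summed to 0.84 to 2.22 FPKM at 2 kPa and 2.93 to 3.20 at 25 kPa, and the 2 leukocyte markers to 3.93 to 5.41 and 2.32 to 3.54. The table held no value of 0 in any library, so a marker missing from it has no level here and may still be expressed. The part of these markers in the results below was not tested. GAPDH, an abundant enzyme of glycolysis, was listed at only 0.32 to 3.35 FPKM, and which transcripts a value covers is not given in the sources used here.

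Most repair genes were somewhat higher on the stiff matrix, and on the log2(FPKM + 1) scale the 3 largest differences were those of homologous recombination genes. RAD51AP1, BRCA2 and XRCC2 each averaged about 2 times their soft-matrix level. By the ratio of mean FPKM, which weighs low genes more, ERCC2 was the largest at 2.74 and BRCA1 followed at 2.32, both from means under 1 FPKM at 2 kPa. On the log2(FPKM + 1) scale, the medians of the crosslink, mismatch and base excision repair genes and of the PARP genes outside strand break repair lay close to that of all genes. With pseudocounts of 0.1 and 0.01, crosslink genes were at 0.21 and 0.30 and mismatch genes at 0.15 and 0.21, beside 0.08 and 0.09 over all genes. Of the 55 genes, 42 (76.4%) were higher and 13 lower at 25 kPa on the log2(FPKM + 1) scale. Over all 8529 genes, 5081 (59.6%) were higher and 3448 lower, and the counts by direction below stand beside that share. The median difference was 0.19 in the 55 genes and 0.05 over all genes. None passed the test across all genes: 0 of 55 had an adjusted p under 0.05 by limma with Benjamini-Hochberg adjustment, where 0.117% of all genes did, and the smallest adjusted p of a member was 0.165. At an unadjusted limma p under 0.05, 12 members were higher and 1 was lower, against a background of 6.96% of all genes higher and 3.19% lower. That is 21.8% and 1.82% of the members. The 3 libraries of each stiffness did not overlap, with the stiff side higher, in 13 members (background 11.2%), and with the stiff side lower in 1 (background 4.78%). Differences below are therefore given as values, and whether a gene lay under an unadjusted p of 0.05 is given as a measure of size against the spread between libraries, not as a gene that passed the test over all genes.

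The count depended on the scaling and on single libraries. With FPKM rescaled to equal library sums, 6 members were higher and 1 lower at an unadjusted p under 0.05, while over all genes 594 higher and 272 lower became 297 higher and 398 lower. With median centring 9 members were higher and 1 lower, and with quantile normalisation 8 and 1, beside 390 and 391, and 471 and 451, over all genes. Leaving out 2 kPa replicate 3 gave 8 members under 0.05, 6 of the 13 and in addition RAD54L2 and XRCC4. Leaving out 25 kPa replicate 1 gave 6, all of the 13, and leaving out 25 kPa replicate 3 gave 6, of which 5 were of the 13 and ATM was gained. Leaving out 2 kPa replicate 2 or 25 kPa replicate 2 gave 13 each, of which 10 were of the 13, with ATM, PARP4 and XRCC1 gained in the first case and PARP4, RAD54B and XRCC5 in the second. Over all genes, the share higher at an unadjusted p under 0.05 moved too. It was 5.46% without 2 kPa replicate 3 (12.7% of members). It was 5.02% without 25 kPa replicate 1 or without 25 kPa replicate 3 (10.9% of members each). It was 8.5% without 2 kPa replicate 2 and 8.31% without 25 kPa replicate 2 (21.8% of members each). The median of the 55 genes was 0.10 without 2 kPa replicate 3, where that of all genes was 0.02. The third 2 kPa library was the lowest of its group in 30 of the 55 genes, and the second 25 kPa library was the lowest of its group in 31.

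**Figure D1:**
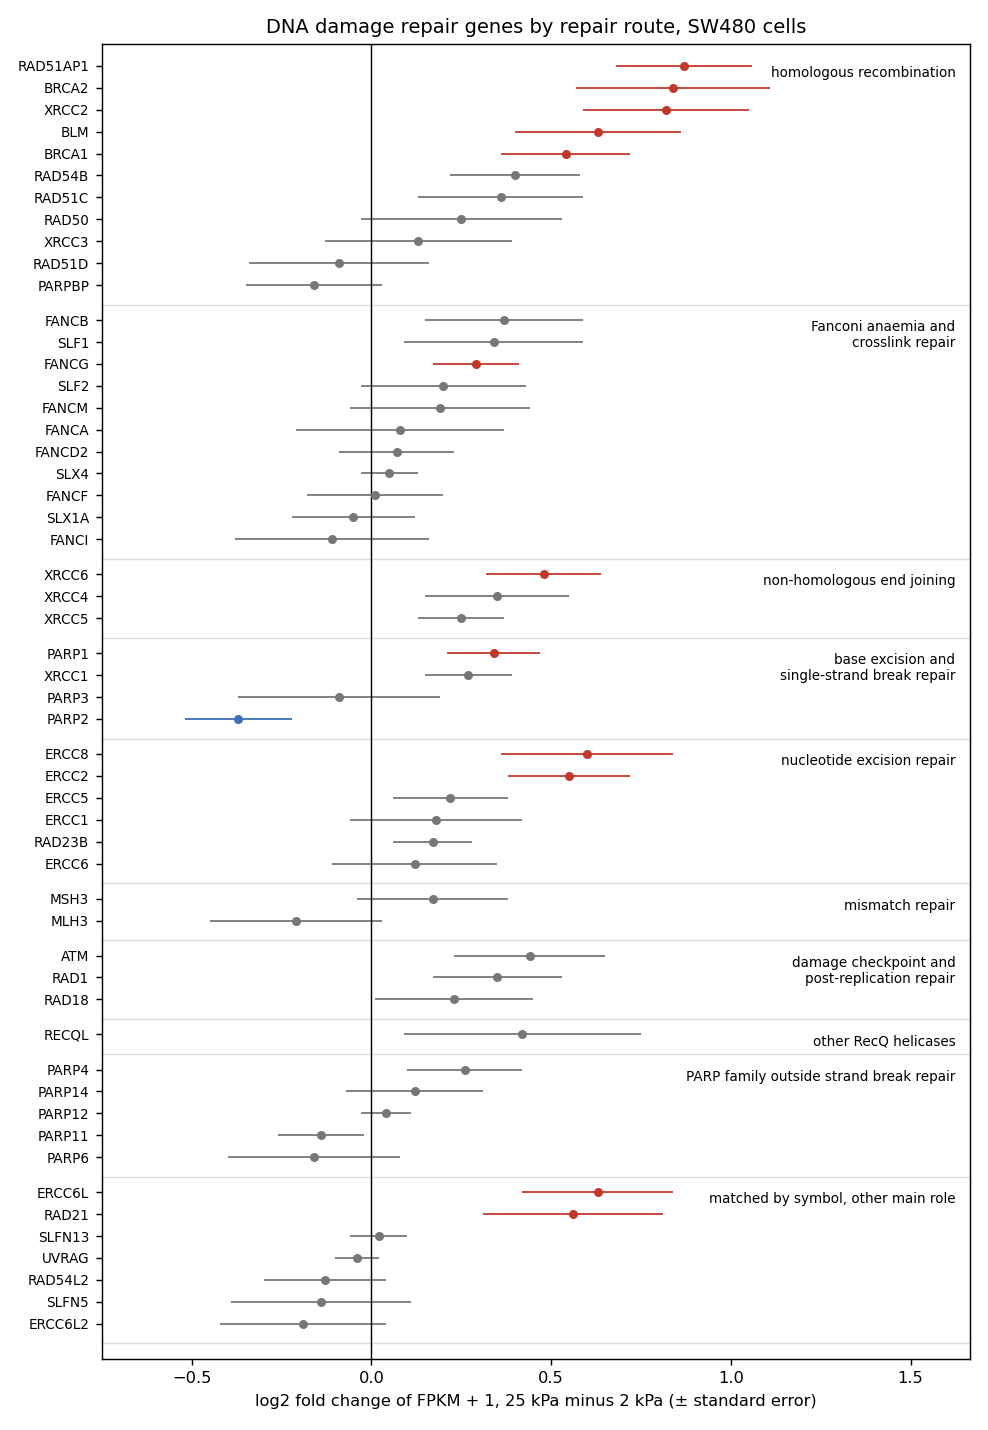
Log2 fold change of FPKM + 1 (25 kPa minus 2 kPa, x axis) of 53 of the 55 repair genes, grouped by repair route, with bars of 1 standard error from limma. Red marks the 12 genes higher and blue the 1 gene lower at an unadjusted p under 0.05, and 5 of the red genes are the upper 5 of the homologous recombination genes.

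Homologous recombination held 11 genes, of which 9 were higher and 2 lower at 25 kPa, with a median log2 difference of 0.40 and 5 genes at an unadjusted p under 0.05. The median was 0.26 without 25 kPa replicate 1 and 0.55 without 2 kPa replicate 1. RAD51AP1, which stimulates strand pairing, had 7.49, 5.74 and 6.47 FPKM at 2 kPa and 14.68, 9.78 and 14.34 FPKM at 25 kPa. Its mean was 6.57 ± 0.879 (SD, n = 3) on the soft and 12.9 ± 2.74 FPKM (SD, n = 3) on the stiff matrix, and every stiff library lay above every soft one. The log2 difference was 0.87 with a standard error of 0.19 and a limma adjusted p of 0.165. Its unadjusted p stayed under 0.05 in all 15 alternatives run, and so did that of XRCC2.

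XRCC2, a cofactor of strand exchange, had 3.73, 3.62 and 2.18 FPKM at 2 kPa and 6.83, 5.32 and 6.68 FPKM at 25 kPa. The groups did not overlap, and the log2 difference of 0.82 had a standard error of 0.23 (limma, adjusted p = 0.255). BRCA2, which starts strand exchange on single-stranded DNA, had 3.05, 3.61 and 2.03 FPKM against 7.02, 3.96 and 7.16 FPKM. Its second stiff library lay just above the soft ones and well under the other two, which gave a log2 difference of 0.84 with a standard error of 0.27 (limma, adjusted p = 0.333). Without 25 kPa replicate 1 the BRCA2 difference was 0.73, and without 25 kPa replicate 3 it was 0.72, and in both its unadjusted p was no longer under 0.05.

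BRCA1, which promotes resection and recruits BRCA2, was of low abundance, at 0.87, 0.35 and 0.26 FPKM at 2 kPa and 1.23, 1.23 and 0.97 FPKM at 25 kPa. The groups lay apart, by a log2 difference of 0.54 with a standard error of 0.18 (limma, adjusted p = 0.356). This is the difference of log2(FPKM + 1), which understates the change of a gene under 1 FPKM: the ratio of the mean FPKM was 2.32. Without 2 kPa replicate 2 the log2 difference of BRCA1 was 0.48, and without 2 kPa replicate 3 it was 0.43, both no longer under an unadjusted p of 0.05. BLM, the RecQ helicase lost in Bloom syndrome, had 4.02, 4.28 and 3.36 FPKM at 2 kPa and 8.77, 4.74 and 6.65 FPKM at 25 kPa. The stiff libraries of BLM spread widely but all lay above the soft ones, with a log2 difference of 0.63 and a standard error of 0.23 (limma, adjusted p = 0.400). It was no longer under an unadjusted p of 0.05 with equal library sums (a difference of 0.53), without 2 kPa replicate 3 (0.55), without 25 kPa replicate 1 (0.44) or without 25 kPa replicate 3 (0.62).

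The other 6 recombination genes had groups that overlapped. RAD51C, a further cofactor of strand exchange, had 10.34, 5.70 and 7.96 FPKM at 2 kPa and 13.35, 9.45 and 8.65 FPKM at 25 kPa, a log2 difference of 0.36 ± 0.23 (SE). RAD54B, a DNA translocase, had 0.72, 0.42 and 0.35 FPKM against 1.40, 0.63 and 0.95 FPKM, a log2 difference of 0.40 ± 0.18 (SE). RAD50, the coiled-coil subunit of the MRN complex, and XRCC3, which binds RAD51C, were at log2 differences of 0.25 and 0.13. RAD51D, which pairs with XRCC2, was at −0.09. PARPBP, a helicase-like protein that restrains recombination, was the lowest of the route, with 0.74, 1.52 and 0.64 FPKM at 2 kPa and 0.71, 0.64 and 0.83 FPKM at 25 kPa. Its difference of −0.16 rested on 1 high soft library, and the other values overlapped. RAD52, RAD54L and EXO1 were not analysed here.

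**Figure D2:**
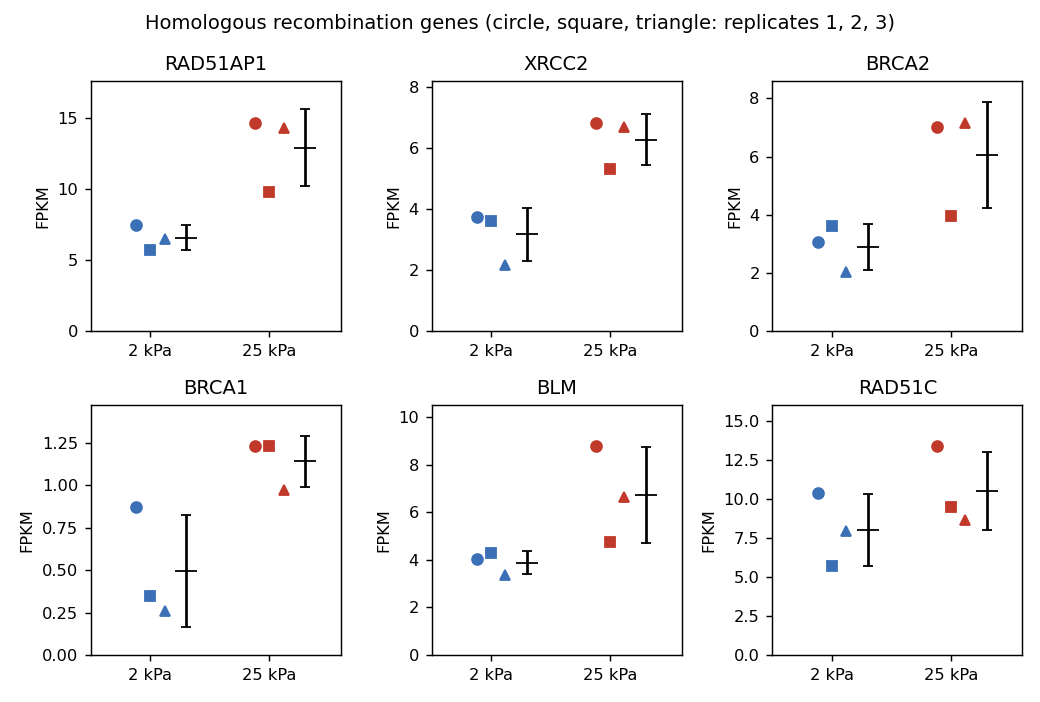
FPKM (y axis, from 0) of 6 homologous recombination genes in each library at 2 kPa (blue) and 25 kPa (red), with symbols for replicates 1, 2 and 3 and a black bar for the mean ± SD of 3 libraries. In RAD51AP1, XRCC2, BRCA2, BRCA1 and BLM every stiff library lies above every soft library, while in RAD51C the groups overlap.

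To show the regulatory sequence of the recombination genes that were highest on the stiff matrix, the windows around their starts are given from RefSeq on GRCh38.p14, from 250 bases before to 50 after the start. They are read 5′ to 3′ on the gene's strand, with capitals for matches to the cell cycle motifs searched. The RAD51AP1 window (chr12:4538640-4538939, forward strand) holds 1 CCAAT box on the reverse strand, the XRCC2 window (chr7:152676092-152676391, reverse strand) 1 E2F motif on the strand opposite to the gene, the BRCA2 window (chr13:32315258-32315557, forward strand) 0 matches and the BLM window (chr15:90717096-90717395, forward strand) 3 CCAAT boxes.
RAD51AP1: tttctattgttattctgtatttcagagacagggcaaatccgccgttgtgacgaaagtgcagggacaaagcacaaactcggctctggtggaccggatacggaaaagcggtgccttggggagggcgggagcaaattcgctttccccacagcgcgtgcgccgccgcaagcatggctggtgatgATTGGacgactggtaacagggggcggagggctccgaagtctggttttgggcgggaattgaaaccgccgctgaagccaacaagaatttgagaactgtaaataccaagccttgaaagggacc
XRCC2: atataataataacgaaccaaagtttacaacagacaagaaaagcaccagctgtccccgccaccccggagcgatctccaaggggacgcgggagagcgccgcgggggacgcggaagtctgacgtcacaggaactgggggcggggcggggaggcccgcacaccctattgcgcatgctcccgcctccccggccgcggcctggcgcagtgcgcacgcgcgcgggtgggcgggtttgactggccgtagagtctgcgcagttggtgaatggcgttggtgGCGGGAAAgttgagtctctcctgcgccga
BRCA2: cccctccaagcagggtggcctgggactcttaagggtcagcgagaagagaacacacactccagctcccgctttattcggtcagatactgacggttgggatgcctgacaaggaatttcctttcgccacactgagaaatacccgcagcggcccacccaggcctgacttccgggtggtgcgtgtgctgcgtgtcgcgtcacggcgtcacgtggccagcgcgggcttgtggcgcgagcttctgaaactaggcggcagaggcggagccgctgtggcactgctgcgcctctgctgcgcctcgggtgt
BLM: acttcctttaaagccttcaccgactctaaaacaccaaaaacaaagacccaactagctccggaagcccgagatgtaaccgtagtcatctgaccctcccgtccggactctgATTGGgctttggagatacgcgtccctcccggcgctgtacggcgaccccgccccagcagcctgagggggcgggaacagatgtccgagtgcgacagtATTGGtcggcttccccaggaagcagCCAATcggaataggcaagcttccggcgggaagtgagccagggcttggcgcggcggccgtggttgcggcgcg

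Promoter windows were found for 44 of the 55 members. The motifs searched on both strands were the E2F forms TTTCCCGC, TTTGGCGC, TTTCGCGC and TTTGCCGC, the cell cycle homology region TTTGAA, and CCAAT, the box bound by NF-Y. An E2F form was present in 8 of the 44 members (18.2%), namely FANCA, FANCD2, MSH3, PARP12, SLF1, SLX1A, XRCC2 and XRCC6, against 6.34% of 6454 genes of the table with a window and 3.99% of all 27305. Among the 10 recombination genes with a window, 1 held an E2F form, 1 the cell cycle homology region and 5 a CCAAT box. TTTGAA was in 13.6% of the members' windows, against 12.4% of the table's genes and 18.2% of all. CCAAT was in 45.5%, against 42.1% and 39.7%. Of the 11 members higher at an unadjusted p under 0.05 that had a window, 2 held an E2F form, 1 TTTGAA and 7 CCAAT. A match describes the letters only.

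Genes of the cell cycle differed between the same libraries in the same direction. The repair members were removed from the Seurat lists, but repair genes outside the symbol rule were not. Some genes may thus be counted both here and among those given further below. In the Seurat lists, 21 of 26 S phase genes and 34 of 36 G2/M genes were higher on the stiff matrix, beside 59.6% of all genes. Their medians were 0.47 and 0.67 on the log2 scale. At an unadjusted p under 0.05, 14 and 22 genes were higher, beside 6.96% of all genes, though 0 had an adjusted p under 0.05 by limma. As the mean deviation from each gene's own mean on the log2 scale, the G2/M genes stood at −0.18, −0.26 and −0.42 in the soft libraries and 0.42, 0.15 and 0.28 in the stiff ones. The 11 recombination genes stood at 0.01, −0.26 and −0.38 against 0.36, 0.03 and 0.23. In both lists the third soft library was the lowest of all 6, the first stiff library was the highest, and the second stiff library was the lowest of the stiff group. The S phase genes, at −0.12, −0.21 and −0.29 against 0.27, 0.14 and 0.21, followed the same order. Part of this order was shared by all genes of the table, which stood at −0.04, 0.05 and −0.1 against 0.04, −0.01 and 0.06. Over all genes too the third soft library was the lowest and the second stiff library the lowest of its group, while the third stiff library was the highest. In bulk RNA, more cells in S or G2 and more of the transcript per cell cannot be told apart, and the part of the cell cycle in the repair genes' values was not tested.

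The libraries also differed by GC content, though the 2 groups overlapped. The 2051 genes with the lowest GC content of their transcripts deviated by −0.07, −0.01 and −0.16 in the soft and 0.13, −0.06 and 0.17 in the stiff libraries, and the 2051 with the highest by 0.01, 0.14 and −0.07 against −0.04, 0.02 and −0.06. The members' median GC content was 42.4%, against 49.6% over all genes. Among recombination genes, the 9 under 45% GC had a median difference of 0.54, and the other 2, XRCC3 and RAD51D, of 0.02. This cut was not planned, and its upper side holds only 2 genes. Recombination genes that do not match the symbol rule, given further below, ranged from −0.04 to 0.83 where over 45% GC. The part of GC content in the repair genes' values was not tested. With a GC trend removed from each library, an alternative chosen after seeing the data, 12 members were higher and 1 lower at an unadjusted p under 0.05. Beside these, 7.89% of the 8201 genes with a GC value were higher. RAD21 was lost and XRCC1 gained, and the median of the recombination genes was 0.29.

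**Figure D3:**
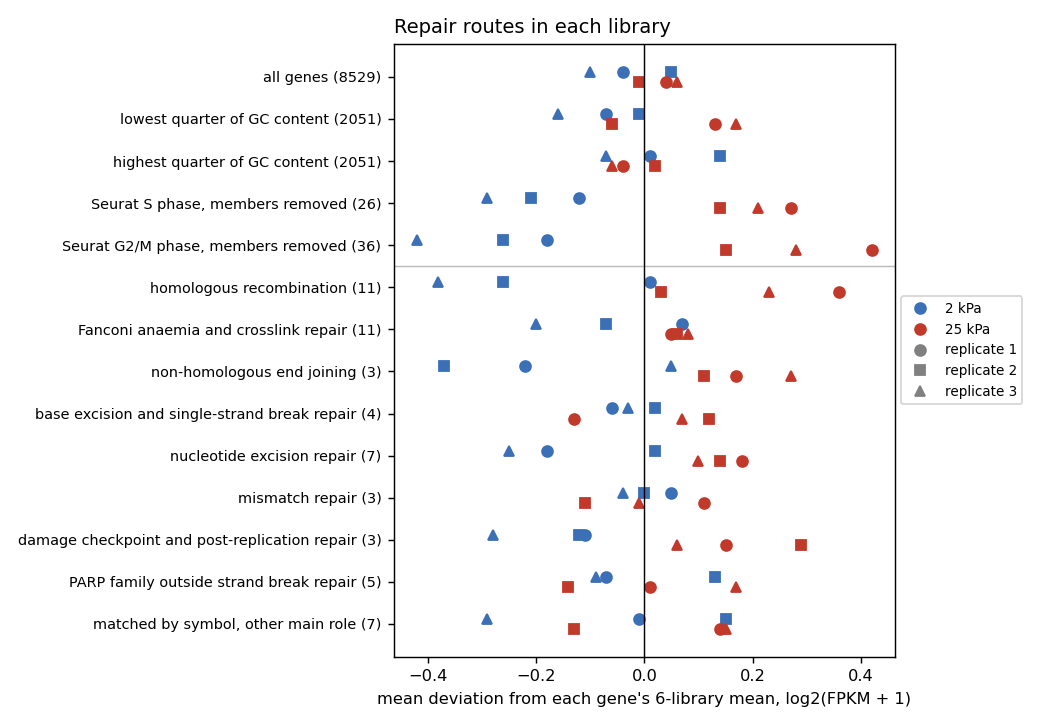
Mean deviation of each gene from its own mean over the 6 libraries, in log2(FPKM + 1) (x axis), averaged over all genes, the genes of lowest and highest GC content, cell cycle lists and the repair routes of at least 3 genes, with the number of genes in brackets. Blue and red mark 2 kPa and 25 kPa and the shape marks the replicate. The homologous recombination genes range from −0.38 in a soft library to 0.36 in a stiff one, and the mismatch repair genes stay between −0.11 and 0.11.

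Non-homologous end joining, as placed by hand, was represented by 3 genes, all higher on the stiff matrix at a median log2 difference of 0.35. That median was 0.57 without 2 kPa replicate 3 and 0.22 without 25 kPa replicate 3. PARP3, at −0.09, is given with single-strand break repair below, and ERCC6L2, at −0.19, with the genes placed apart from the routes. XRCC6 encodes Ku70 and XRCC5 encodes Ku80, the pair that encircles a broken end, and they had the highest FPKM of the 55 members. XRCC6 had 144.96, 110.03 and 169.73 FPKM at 2 kPa and 191.98, 207.67 and 186.09 FPKM at 25 kPa. All stiff libraries lay above the soft ones, with a log2 difference of 0.48 and a standard error of 0.16 (limma, adjusted p = 0.356). XRCC6 was no longer under an unadjusted p of 0.05 with median centring, at a difference of 0.43, or without 25 kPa replicate 2, at 0.44. XRCC5 had 146.80, 131.41 and 135.22 FPKM against 169.46, 151.26 and 173.47 FPKM, again with no overlap, and a log2 difference of 0.25 ± 0.12 (SE) that did not reach an unadjusted p under 0.05 (limma, adjusted p = 0.512).

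The ratio of XRCC6 to XRCC5 in each library was 0.987, 0.837 and 1.26 at 2 kPa and 1.13, 1.37 and 1.07 at 25 kPa. The partners of the heterodimer were thus listed at near equal levels, and their ratio overlapped between the groups (two-sided exact permutation p = 0.4, where 3 against 3 cannot go below 0.1). XRCC4, the scaffold of DNA ligase IV, was low, at 0.07, 0.15 and 0.76 FPKM against 0.58, 0.44 and 0.98 FPKM. Its groups overlapped, and the log2 difference of 0.35 had a standard error of 0.20.

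The XRCC6 window, shown because XRCC6 has the highest FPKM of the members and its window holds 1 E2F form and 1 CCAAT box, both on the reverse strand, lies at chr22:41621045-41621344 of GRCh38.p14 on the forward strand.
XRCC6: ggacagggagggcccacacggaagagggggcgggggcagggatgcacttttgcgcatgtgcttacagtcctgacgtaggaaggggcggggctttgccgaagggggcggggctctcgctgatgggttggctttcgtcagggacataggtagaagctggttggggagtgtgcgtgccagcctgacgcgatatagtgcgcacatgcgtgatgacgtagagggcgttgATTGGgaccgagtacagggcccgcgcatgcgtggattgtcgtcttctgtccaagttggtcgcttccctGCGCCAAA

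Base excision and single-strand break repair held 4 genes, of which 2 were higher and 2 lower, with a median log2 difference of 0.09. Leaving out 25 kPa replicate 2 gave a median of 0.00, and leaving out 25 kPa replicate 1 gave 0.23. PARP1, the main sensor of strand breaks, had 43.13, 48.26 and 37.26 FPKM at 2 kPa and 55.42, 48.50 and 59.32 FPKM at 25 kPa. The groups came within 1 FPKM of each other without overlapping, with a log2 difference of 0.34 and a standard error of 0.13 (limma, adjusted p = 0.426). PARP2, the smaller enzyme that shares part of this task, had 1.11, 0.76 and 0.96 FPKM against 0.43, 0.71 and 0.38 FPKM. It was the 1 member whose stiff libraries all lay below the soft ones, with a log2 difference of −0.37 and a standard error of 0.15 (limma, adjusted p = 0.452).

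Both results depended on the scaling or pseudocount and on single libraries. The unadjusted p of PARP1 was under 0.05 in 6 of 15 alternatives and that of PARP2 in 7 of 14, and neither difference changed sign. PARP1 was lost with equal library sums (0.22), quantile normalisation (0.25), median centring (0.29), no variance trend (0.34) and the replicate block (0.34), and PARP2 with pseudocounts of 0.1 (−0.81) and 0.01 (−0.92) and the replicate block (−0.37). Without 25 kPa replicate 3, PARP1 was at 0.28 and PARP2 at −0.31, both above an unadjusted p of 0.05. So were the differences without 2 kPa replicate 1, 2 kPa replicate 3 or 25 kPa replicate 1, which were 0.35, 0.24 and 0.32 for PARP1 and −0.31, −0.36 and −0.34 for PARP2. The ratio of PARP1 to PARP2 was 38.9, 63.5 and 38.8 at 2 kPa and 129, 68.3 and 156 at 25 kPa. PARP1 was thus the far more abundant of the pair in every library, and the ratios of the groups lay apart, which follows from the values of each gene and is no further result. Of 4 ratios compared, all chosen with the values known and 1 of them not reported here, another was RAD51AP1 to RAD51C, with a mean of 0.848 on the soft and 1.26 on the stiff matrix and a two-sided exact permutation p of 0.1, the smallest that 3 against 3 can give. Adjusted over the 4 ratios, the exact p was 0.2 for RAD51AP1 to RAD51C and 0.533 for XRCC6 to XRCC5.

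XRCC1, the scaffold that gathers the ligation enzymes at a nick, had 13.53, 15.56 and 13.54 FPKM at 2 kPa and 17.04, 17.77 and 17.19 FPKM at 25 kPa. The stiff libraries were tightly grouped above the soft ones, and the log2 difference of 0.27 ± 0.12 (SE) had a limma adjusted p of 0.491. PARP3, which acts at double-strand breaks but was placed here by hand, had 2.20, 2.78 and 3.32 FPKM against 1.43, 3.40 and 3.07 FPKM, with overlap and a log2 difference of −0.09.

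**Figure D4:**
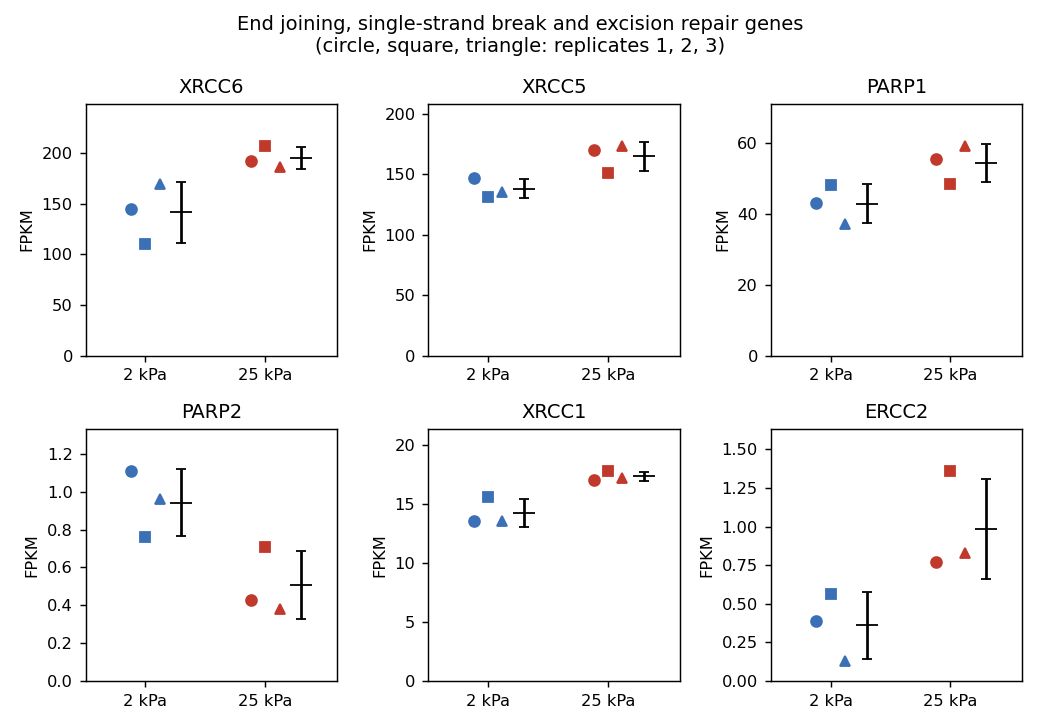
FPKM (y axis, from 0) of XRCC6, XRCC5, PARP1, PARP2, XRCC1 and ERCC2 in each library at 2 kPa (blue) and 25 kPa (red), with symbols for replicates 1, 2 and 3 and a black bar for the mean ± SD of 3 libraries. The groups do not overlap in any of the 6 genes, and PARP2 is the gene whose stiff libraries are the lower ones.

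All 7 nucleotide excision repair genes had positive differences, whose median was 0.18 on the log2 scale, and the largest were those of ERCC8 at 0.60 and ERCC2 at 0.55. By the ratio of mean FPKM the order was the other way, at 2.09 for ERCC8 and 2.74 for ERCC2. The median was 0.28 without 2 kPa replicate 2 and 0.11 without 2 kPa replicate 3. The 2 at an unadjusted p under 0.05 were of low abundance. ERCC2, the XPD helicase of TFIIH, had 0.39, 0.56 and 0.13 FPKM at 2 kPa and 0.77, 1.36 and 0.83 FPKM at 25 kPa. The groups lay apart, with a log2 difference of 0.55 and a standard error of 0.17 (limma, adjusted p = 0.331), and without 2 kPa replicate 3 the difference was 0.42, no longer under an unadjusted p of 0.05. ERCC8, the CSA protein of transcription-coupled repair, had 0.38, 0.86 and 1.27 FPKM against 1.27, 1.90 and 2.08 FPKM. The groups touched at 1.27 FPKM, and the log2 difference was 0.60 with a standard error of 0.24 (limma, adjusted p = 0.440).

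The unadjusted p of ERCC8 was under 0.05 in 9 of 15 alternatives. It was not without 2 kPa replicate 1 (a difference of 0.41), 2 kPa replicate 2 (0.62), 25 kPa replicate 2 (0.56) or 25 kPa replicate 3 (0.51). The most abundant gene of the route was RAD23B, a partner of the lesion sensor XPC, at 62.62, 58.73 and 53.12 FPKM and 65.45, 61.11 and 70.26 FPKM. Its groups overlapped, with a log2 difference of 0.17 ± 0.11 (SE).

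ERCC1, a subunit of the nuclease that cuts 5′ of the lesion, had 0.92, 0.72 and 0.40 FPKM against 1.14, 1.38 and 0.33 FPKM. The third stiff library was the lowest of all 6, and the log2 difference of 0.18 had a standard error of 0.24. ERCC5, the nuclease that cuts on the other side, and ERCC6, the CSB translocase, were at 0.22 and 0.12 with overlapping groups.

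The Fanconi anaemia and crosslink repair genes numbered 11, with 9 higher and 2 lower, and their median log2 difference of 0.08 was close to that of all genes, 0.05. With 2 kPa replicate 3 left out it was 0.02, and with 25 kPa replicate 1 left out 0.18. With pseudocounts of 0.1 and 0.01 the median of the route was 0.21 and 0.30, beside 0.08 and 0.09 over all genes. FANCG, a subunit of the core ubiquitin ligase and the most abundant of the route, had 23.44, 22.01 and 22.32 FPKM at 2 kPa and 26.25, 31.06 and 26.29 FPKM at 25 kPa. The soft libraries lay close together and all stiff ones above them, with a log2 difference of 0.29 and a standard error of 0.12 (limma, adjusted p = 0.444). It was under an unadjusted p of 0.05 in 5 of 15 alternatives. Leaving out any 1 of the 6 libraries took it above 0.05, at differences of 0.31, 0.27 and 0.28 without soft replicates 1, 2 and 3 and 0.33, 0.21 and 0.33 without stiff replicates 1, 2 and 3, and so did equal library sums, at 0.17.

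FANCB, another core subunit, had the largest difference of the route, at 1.93, 1.50 and 1.57 FPKM against 2.94, 1.93 and 2.49 FPKM. Its groups touched at 1.93 FPKM, and the log2 difference of 0.37 had a standard error of 0.22. FANCA, a core subunit, had 1.38, 2.46 and 0.58 FPKM at 2 kPa and 1.57, 1.44 and 1.44 FPKM at 25 kPa, so that the stiff values lay within the wide soft range. FANCD2, which the core complex ubiquitinates, had 0.59, 0.43 and 0.41 FPKM against 0.32, 0.92 and 0.46 FPKM, with a log2 difference of 0.07. FANCI, its partner, was the lowest of the route at −0.11, with 2.34, 0.86 and 1.16 FPKM against 1.23, 0.79 and 1.66 FPKM.

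Of the remaining genes of this route, SLF1 and SLF2, which bring the SMC5/6 complex to stalled forks, were at 0.34 and 0.20. FANCM, the fork translocase, was at 0.19. FANCF, a core subunit, was at 0.01. SLX4, the nuclease scaffold, was at 0.05 from a mean of only 0.132 FPKM, and SLX1A, its nuclease partner, at −0.05. Groups overlapped in all of these. SLX1A has a near-identical second copy, SLX1B, so its reads may be split between copies.

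Mismatch repair and the checkpoint each had 3 genes. MSH3, which recognises small loops, had 3.86, 4.44 and 3.67 FPKM at 2 kPa and 4.55, 3.69 and 5.78 FPKM at 25 kPa. MLH3, a MutL protein, had 1.96, 1.25 and 1.58 FPKM against 1.91, 1.05 and 0.86 FPKM. Both overlapped between the groups, with log2 differences of 0.17 and −0.21. MSH6 was not analysed here.

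ATM, the kinase that signals double-strand breaks, had 0.79, 1.23 and 0.72 FPKM at 2 kPa and 1.65, 2.03 and 1.14 FPKM at 25 kPa. The lowest stiff library lay below the highest soft one, and the log2 difference of 0.44 had a standard error of 0.21 (limma, adjusted p = 0.539). RAD1, a subunit of the 9-1-1 clamp, had 3.89, 3.47 and 4.01 FPKM against 5.09, 5.12 and 5.11 FPKM. The stiff libraries were almost equal and above all soft ones, and the log2 difference of 0.35 ± 0.18 (SE) had a limma adjusted p of 0.562. RAD18, the ligase that marks PCNA at blocked forks, was the lowest of the route, with 1.87, 1.46 and 1.05 FPKM against 1.69, 2.14 and 1.74 FPKM and a log2 difference of 0.23. ATR was not analysed here.

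Several genes caught by the symbol rule were placed by hand apart from the routes above, some of them because they work mainly elsewhere. ERCC6L, the PICH translocase that resolves bridges in anaphase, had 4.56, 4.54 and 3.30 FPKM at 2 kPa and 7.71, 5.48 and 7.65 FPKM at 25 kPa. All its stiff libraries were higher, with a log2 difference of 0.63 and a standard error of 0.21 (limma, adjusted p = 0.347), and the unadjusted p was no longer under 0.05 with equal library sums (0.52), without 25 kPa replicate 1 (0.55) or without 25 kPa replicate 3 (0.56). RAD21, the cohesin subunit that holds sister chromatids together, had 20.72, 28.38 and 14.83 FPKM against 36.59, 22.99 and 34.99 FPKM. The groups overlapped through the second library of each, and the log2 difference of 0.56 had a standard error of 0.25 (limma, adjusted p = 0.489). Its unadjusted p was under 0.05 in 6 of 15 alternatives, and was lost with equal library sums (a difference of 0.44), quantile normalisation (0.48), no variance trend (0.56), the replicate block (0.56) and the GC trend removed (0.47). It was also lost without 2 kPa replicate 1 (0.56), 2 kPa replicate 3 (0.34), 25 kPa replicate 1 (0.44) or 25 kPa replicate 3 (0.47).

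The other members of this group were ERCC6L2 at −0.19, SLFN5 at −0.14, RAD54L2 at −0.13, UVRAG, an autophagy regulator, at −0.04, and SLFN13 at 0.02. RAD54L2, UVRAG and SLFN13 averaged only 0.318, 0.0733 and 0.0917 FPKM, where log2(FPKM + 1) understates a change. ERCC6L2, the lowest, had 2.55, 2.48 and 1.71 FPKM against 1.60, 1.59 and 2.35 FPKM, with overlap. Its placing here, by hand, leaves it out of the end joining counts. SLFN5 and SLFN13 are Schlafen genes that begin with SLF by name only and were placed here after the table was opened. Among the 5 PARP genes outside strand break repair, PARP4, the vault enzyme, was the most abundant, with 25.08, 31.16 and 22.49 FPKM at 2 kPa and 33.11, 26.43 and 34.90 FPKM at 25 kPa. Its groups overlapped, with a log2 difference of 0.26. PARP6 was the lowest of these, at 1.32, 2.23 and 2.02 FPKM against 1.42, 1.17 and 2.07 FPKM and a log2 difference of −0.16. PARP14, PARP12 and PARP11 were at 0.12, 0.04 and −0.14, of which PARP12 and PARP11 averaged only 0.085 and 0.553 FPKM. RECQL, the RecQ helicase that was in the table beside BLM, had 2.67, 1.16 and 3.25 FPKM against 3.36, 2.23 and 4.76 FPKM, with overlap and a log2 difference of 0.42.

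The levels of the 55 genes reached up to 168 FPKM, with a median of 2.05, and 15 averaged under 1 FPKM. XRCC6 and XRCC5 were the highest, at 168 and 151 FPKM over all libraries, and RAD23B followed at 61.9, PARP1 at 48.6 and PARP4 at 28.9 FPKM. The libraries of XRCC6 and XRCC5 overlapped, so their order is not fixed by these data, whereas each library of RAD23B lay below each of both Ku genes. BRCA1, at 0.818 FPKM, and ERCC1, at 0.815 FPKM, were among the 15 low genes.

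The repair genes that do not match the symbol rule were taken from a list by route, and 69 of them were in the table. Of these, 50 (72.5%) were higher and 19 lower at 25 kPa, beside 59.6% of all genes higher, with a median log2 difference of 0.21. At an unadjusted p under 0.05, 16 (23.2%) were higher and 0 lower, beside the 6.96% and 3.19% of all genes. By limma, 0 had an adjusted p under 0.05, and the smallest was 0.181. Their libraries did not overlap, with the stiff side higher, in 18 genes, beside 11.2% of all genes. In homologous recombination 5 of 12 genes were among the 16: EME1, a subunit of the MUS81 nuclease, at 0.83, UIMC1, a BRCA1-A subunit, at 0.77, RMI2, a partner of BLM, at 0.56, SHFM1, the BRCA2 cofactor DSS1, at 0.52, and RPA3, of the single-strand binding protein RPA, at 0.50. In the checkpoint group 5 of 10 genes were: CLSPN, the adaptor of CHEK1, at 0.79, TOPBP1, the activator of ATR, at 0.64, TIMELESS, of the fork protection complex, at 0.62, the kinase CHEK1 at 0.61, and ETAA1, a second ATR activator, at 0.51.

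EME1, as the largest of these differences, had 5.43, 3.51 and 3.96 FPKM at 2 kPa and 9.43, 7.61 and 7.94 FPKM at 25 kPa, with no overlap (limma, adjusted p = 0.193). The crosslink route held 2 of 9, UBE2T, the ubiquitin-conjugating enzyme of FANCD2, at 0.71 and APITD1, a FANCM partner, at 0.52. Base excision repair held 2 of 13, the glycosylase NEIL3 at 0.63 and the flap nuclease FEN1 at 0.41. Nucleotide excision repair held 1 of 11, the ligase scaffold CUL4B at 0.59, mismatch repair 1 of 8, the clamp loader subunit RFC4 at 0.43, and end joining 0 of 6, while 1 of these 6 genes had libraries that did not overlap.

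Exons of 26 members overlap exons of a gene on the opposite strand in GENCODE 29, and it is not given whether strand was used in the counting. Among those named above with an unadjusted p under 0.05 these are BRCA1, ERCC2 (with KLC3), ERCC8, PARP2 and RAD21, and reads of the pair cannot be told apart if strand was not used. Exons of 11 members, among them BRCA1, ERCC8 and RAD21, overlap exons of another gene on the same strand, where strand alone would not tell reads apart. The annotation also names 17 pseudogenes after 7 members, among them 5 of XRCC6, 2 of PARP1 and 1 of RAD51AP1, with which reads may be shared.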

How the data were processed

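RNA of SW480 cells at 2 kPa and 25 kPa was sequenced in 6 libraries. The authors deposited FPKM per gene symbol, unpooled, after quality assessment and coding prediction of the reads. The submitters' processing notes name HISAT, StringTie, Bowtie2, RSEM and the build hg18, with no role or version. A small RNA purification is described in the methods as well. Counts were not used here, so the authors' DESeq2 was not run. Of the symbols, 11 were written as dates and stayed in the tests without a name. Groups and replicate numbers came from the sample titles, with 0 columns unassigned.

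The log2(FPKM + 1) of all 8529 genes was compared with limma 3.58.1 (R 4.3.3, eBayes with a variance trend, two-sided) and adjusted by Benjamini-Hochberg. The lowest value of the table was 0.01 FPKM and no library held a value of 0, so the 8529 genes may be a selection made before deposit. No further filter was applied here, and shares over all genes are shares of these 8529. Ratios were compared on the log2 scale by exact permutation tests over libraries. The members and lists were chosen with earlier results of these data known. Values in every library are given for members at an unadjusted p under 0.05, for well-known genes of each route, and for the largest, smallest and most abundant of each route. The other members are given by log2 difference, 2 members are not reported singly here, and genes outside the rule are named at an unadjusted p under 0.05. Each member was placed in 1 route by hand. Cell cycle lists came from Seurat 5.3.0, GC content (8201 genes) and exon overlaps from GENCODE 29, and promoters from RefSeq (GRCh38.p14). The limma program was run on simulated data with changes larger than the difference of any member, so recovery of differences of the sizes given here was not tested. The alternatives were 2 smaller pseudocounts (0.1, 0.01), only genes averaging 1 FPKM or more, 3 scalings, no trend, a replicate block, each library left out, BLM moved to the other RecQ helicases and, chosen after seeing the data, removal of a GC trend.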

Additional observations from a re-analysis of the deposited data

How the results depend on the processing

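Under each alternative 0 members had an adjusted p under 0.05 by limma (smallest over all settings, 0.118), and none of the 13 members with an unadjusted p under 0.05 changed sign. Of the other 42 members, 19 changed sign under at least 1 alternative and 23 kept it. The share of all genes higher at an unadjusted p under 0.05, 6.96%, was 3.48% with equal library sums and 5.02% to 8.5% without single libraries. The count of 13 members was 7 with equal library sums, 6 of them higher, and 6 to 13 without single libraries, 6 to 12 of them higher. These are not always the same genes: without single libraries 5 to 10 of the 13 were kept, and 9 kept and 2 gained (RAD54B, XRCC4) made the 11 of the replicate block. Without a variance trend 11 were kept and ATM, FANCB, RAD1 and XRCC1 gained. The cause of these changes was not tested.

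The median log2 difference of all 8529 genes, 0.05, was 0.08 and 0.09 with pseudocounts of 0.1 and 0.01 and −0.02 with equal library sums. It was 0.08 at a mean FPKM of at least 1, and 0.02 to 0.08 without single libraries. That of all members, 0.19, was 0.28 and 0.32 with these pseudocounts, 0.11 with equal library sums, and 0.10 to 0.24 without single libraries. That of homologous recombination, 0.40, was 0.74 and 0.75 with these pseudocounts, 0.38 without BLM, and 0.26 to 0.55 without single libraries. The crosslink genes, at 0.08, were at 0.21 and 0.30 with the pseudocounts, 0.19 at a mean FPKM of at least 1, 0.03 with equal library sums, 0.03 with median centring, and 0.02 to 0.18 without single libraries. Mismatch repair, at 0.02, was at 0.15 and 0.21 with the pseudocounts and −0.01 to 0.06 without single libraries. At a mean FPKM of at least 1, base excision repair was at 0.27 and the genes placed by hand under another main role at 0.21. Without single libraries, base excision repair ranged from 0.00 to 0.23, end joining from 0.22 to 0.57 and nucleotide excision repair from 0.11 to 0.28. The checkpoint genes then ranged from 0.30 to 0.37 and the other PARP genes from 0.00 to 0.07. The genes placed under another main role ranged from −0.05 to 0.04. A lower pseudocount gives more weight to the 15 members under 1 FPKM.

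The labels do not say whether same-numbered libraries were paired. The deviations of same-numbered libraries correlated at 0.115, −0.267 and −0.125, and those of differently numbered ones at −0.238 to 0.294. Deviations from a group mean are bound to each other within the group, so these values cannot settle whether the libraries were paired. With the replicate block 11 members were higher and 0 lower at an unadjusted p under 0.05, beside 476 higher and 237 lower over all genes. It left 0 adjusted calls among members and 3 over all genes in place of 10. EXO1 could not be moved between routes, as it was not analysed here. The number of reads behind each library's FPKM is not given, so no counting error was estimated for low members such as SLX4 and UVRAG.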
